A study of Mus musculus with 12 samples.

Results

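The comparison described here set 2 arrays of C10 cells given beta-estradiol for 12 h against 2 arrays of C10 cells given ethanol, the vehicle. These are 4 of the 12 one-colour mouse arrays of the series, chosen by their titles and not by any measured value, and all 45101 probe sets of each array entered the normalisation. C10 is a cell line that carries an inducible form of C/EBPα. All C10 groups share that construct, and the labels give neither the way it was introduced, nor whether C10 is 1 clone, nor how long the vehicle was applied. The other arrays, used below only for orientation, are C10 given beta-estradiol for 3, 24 or 48 h and the HAFTL line given beta-estradiol, which is derived from fetal liver, was transformed by Ha-ras and is the control named in the design, each with 2 arrays. No HAFTL array was given vehicle, and within C10 the hormone's own effect and that of the induced factor cannot be told apart. Whether duplicates are separate cultures is not stated, so p-values reflect the spread between these samples alone, and that spread may be technical.

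C/EBPα is a leucine zipper transcription factor of the granulocyte and macrophage lineages, which binds DNA as a dimer at sites of the form TTGCNNAA. A precursor B cell rearranges its immunoglobulin genes with the Rag recombinase, carries a pre-B cell receptor made of the heavy chain, the surrogate light chains Vpreb and Igll1 and the signalling chains Cd79a and Cd79b, and is kept in its lineage by factors such as Ebf1, Pax5, Tcf3 and Foxo1. A macrophage or granulocyte senses microbes, engulfs and digests them, makes reactive oxygen, releases granule proteins, chemokines and interleukin-1, and depends on the Csf1, Csf2 and Csf3 receptors. The 12 h arrays lie between those states in time, and the question put to them was which B cell functions were already reduced and which myeloid functions were already present.

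The labelled cell type was checked against marker genes. Of 8 B lineage markers with a probe set of their own, 8 lay above the filter level (a signal of 74.6, the median of all values) in both vehicle arrays and 7 in both 12 h arrays, the exception being Rag1 at the floor of 16, and their summed signal was 104446 and 104484 in vehicle C10 against 26816 and 27177 at 12 h. Of 9 macrophage markers, 6 were above the level in both vehicle arrays and 7 in both 12 h arrays. Their summed signal was 8673 to 8930 at 12 h, most of it from Lyz2 and Cd14, against 1550 to 1615 in vehicle C10. Csf1r, Lyz2, Mpeg1 and Cd14 were called higher, Cd68, Fcgr1 and Mrc1 lower, and Adgre1 and Itgam did not pass. Itgam stood at the floor in both 12 h arrays. The 8 granulocyte markers summed to 263 to 292 in vehicle C10 and 2790 to 2959 at 12 h, with S100a8 and Camp the ones above the level in both 12 h arrays. Of the markers of other cells Cd8a, at 112 and 127, was above the level in both 12 h arrays, with 88.1 and 100.5 in vehicle C10. The sums at 12 h were 161 to 175 for 4 T and NK cell markers with Cd3e and Cd4 at the floor, 40.1 to 93.9 for 2 erythroid markers, 48 to 75.7 for 3 mast cell markers, 128 to 161 for 3 dendritic cell markers and 78.5 to 103 for 3 stromal markers. The endogenous Cebpa probe set was at the floor in both 12 h arrays and did not pass the filter, so it checks nothing about the construct. Because whole cultures were measured, a change may reflect fewer cells of a kind or less RNA per cell, which cannot be told apart.

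The correlation between duplicates, taken over genes and so without independent points, was 0.979 at 12 h and 0.980 for vehicle. The ratio of the 5′ to the 3′ probe set of Actb, a sign of RNA quality, was 0.825 ± 0.033 (SD, n = 2) at 12 h against 0.610 ± 0.040 in vehicle C10, and that of Gapdh 1.21 ± 0.06 against 1.17 ± 0.03. The poly-A spike-in transcripts, added in the laboratory and not made by the cells, had a geometric mean signal of 183 ± 15 at 12 h and 307 ± 48 in vehicle C10. In the 48 h arrays it was 291 and 141, a spread that enters the shared error of every call under spike-in scaling. The part of the Actb ratio in the results was not tested, and that of the spike-ins was tested as a scaling.

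Of 11696 genes tested, 2609 (22.3%) were higher and 3358 (28.7%) lower at 12 h than in vehicle C10 at an adjusted p below 0.05 (limma, Benjamini-Hochberg), 51% in all. With a change of at least 2-fold as well, 960 (8.21%) were higher and 1358 (11.6%) lower. The 4 arrays did not overlap between the groups for 8979 genes (76.8%). The median change of all genes was -0.08 on the log2 scale. Scaling the arrays to the spike-ins in place of quantile normalisation moved that median to 0.61 and left 2449 genes higher and 441 lower, so that higher genes made up 84.7% of the calls against 43.7%. Directions of small changes therefore depended on the scaling, and the values that turned are given with the results or among the processing alternatives.

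B cell functions fell as a group and myeloid functions were mixed. Of 132 genes in 8 B cell function lists, 122 had a probe set of their own, 115 were tested, of which 86 fell and 10 rose while 19 were not called, with a median change of -1.41 on the log2 scale (-1.23 with genes under the filter level set at their bound). Of 276 genes in 14 myeloid function lists, 256 had such a probe set, 222 were tested, 102 rose, 36 fell and 84 did not pass, with a median of 0.53 (0.30 with bounds). Beside these counts, and those of each list below, stand 22.3% of all tested genes higher and 28.7% lower. The lists were chosen with earlier results of these data known, so the counts describe the lists and are not independent support. A dim gene could pass the filter only through arrays in which it was bright, while the myeloid genes left out by the filter reached the level in at most 1 array, and the count over those that passed is not a count over all myeloid genes. Under spike-in scaling the B cell lists had 43 genes lower and 10 higher and the myeloid lists 108 higher and 8 lower. Relative to the shift of all genes that scaling gave medians of -1.29 and 0.61.

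**Figure D1:**
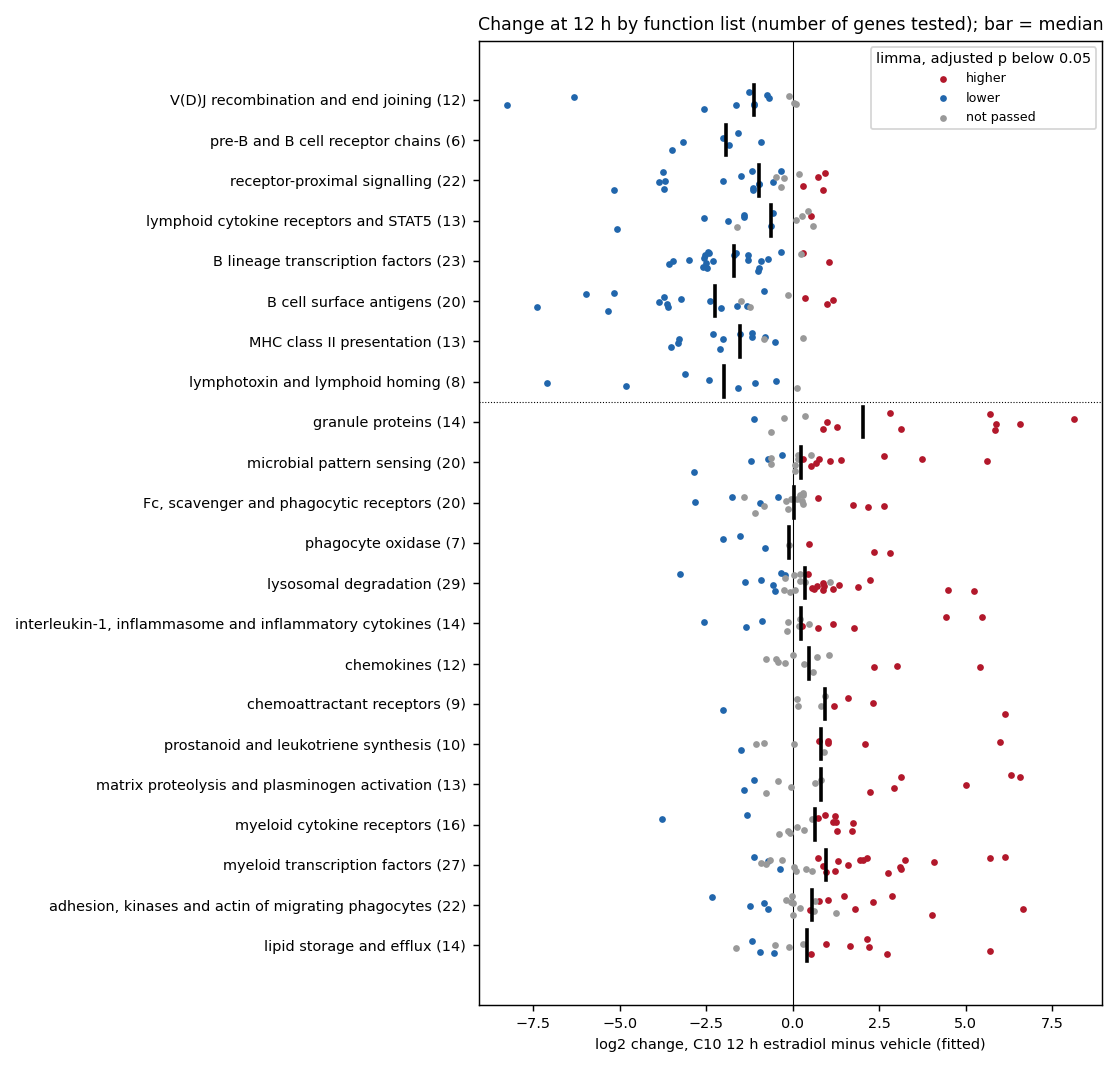
Log2 change of each tested gene at 12 h estradiol against vehicle C10 (x axis), by function list (y axis, number of genes tested), with B cell lists above the dotted line and myeloid lists below. Red points were higher and blue points lower at an adjusted p below 0.05, grey points did not pass, vertical spread within a row is arbitrary, and black bars are medians: all 8 B cell medians lie below 0, and of the myeloid medians only that of the phagocyte oxidase does.

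Genes of the machinery that rearranges immunoglobulin genes fell. Of 12 tested genes of V(D)J recombination and end joining, 9 fell and none rose (median -1.12, and 3 lower under spike-in scaling). Rag1, which with Rag2 forms the recombinase, had signals of 4927 and 4904 in vehicle C10, 30.8 and 26.9 after 3 h and 16 and 16 after 12 h, a decrease of at least 65.8-fold (adjusted p = 1.4e-06). Rag2 had 1330.0 and 1252 in vehicle C10 and 16 and 16 at 12 h. Both 12 h arrays were thus at the floor for both genes, far from the vehicle arrays. Dntt, which adds untemplated bases at junctions, was dim already in vehicle C10, at 88.8 and 102, and at the floor at 12 h, a bound of 1.28-fold. Xrcc6, the Ku70 end-joining protein that all cells use, kept 694 and 721 of 2157 and 2217 and fell by 1.63 ± 0.10 (log2 units, here and below with the SE of the fit, 2 arrays per group; adjusted p = 1.1e-05). The general repair genes Lig4, Paxx and Nhej1 did not pass, with log2 changes of -0.12, 0.03 and 0.09. Under spike-in scaling Xrcc6 did not pass either (adjusted p = 0.12).

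Pre-B cell receptor genes fell without being lost. All 6 tested chains were lower (median -1.93, with 2 lower under spike-in scaling). Vpreb3, a partner of the surrogate light chain, had 10903 and 11529 in vehicle C10 and 1002 and 1009 at 12 h, and fell by 3.48 ± 0.11 (adjusted p = 5.4e-07), against 6685 and 6983 at 3 h. Cd79b, a signalling chain, had 18461 and 18823 in vehicle C10, 1447 and 1535 after 3 h and 1951 and 2154 after 12 h. It fell by 3.18 ± 0.08 from vehicle, but 12 h exceeded 3 h by 0.46 ± 0.08 (adjusted p = 0.0036), and the 48 h arrays stood at 5626 and 6105. Cd79a, its partner, went from 12427 and 12728 to 4122 and 4320.0 and fell by 1.58 ± 0.08. Igll1, the lambda5 surrogate light chain, still had 13471 and 12955 at 12 h against 24530.5 and 25512 and fell by 0.92 ± 0.07 (adjusted p = 2.6e-05), with 2209 and 2108 at 48 h. Igll1, Vpreb1 and Ighm belong to multigene families whose transcripts the probes may share. Averaging its probe sets ended the call for Igll1 (adjusted p = 0.167). Under spike-in scaling Cd79a, Igll1, Vpreb1 and Ighm did not pass, with adjusted p of 0.27, 0.87, 0.054 and 0.12.

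Below the receptor, adaptors and inhibitory co-receptors fell. In the receptor-proximal signalling list 14 of 22 genes fell and 4 rose (median -0.99, with 6 lower and 3 higher under spike-in scaling). The adaptor Blnk had 14446 and 12010.0 in vehicle C10 and 913 and 1122 at 12 h, and fell by 3.70 ± 0.14 (adjusted p = 9.0e-07). The inhibitory co-receptor Cd22 went from 7854 and 7492 to 586 and 585, Cd72, another, from 3466 and 3284 to 226 and 238, and the scaffold Bank1 from 4332 and 3929 to 437 and 218. The phosphatase gene Ptpn22, which restrains lymphocyte receptors, was below the filter level at 12 h, with 26.1 and 52.9 against 1364 and 1325, a bound of 18-fold. These 5 were named as the largest changes of the list, and in none did the groups overlap, as was so for 76.8% of all genes. Against this direction, Malt1, a protease of NF-κB signalling, rose by 0.94 ± 0.17 from 735 and 560.4 to 1248 and 1223, and Pik3r1, a regulatory subunit of PI3 kinase, by 0.87 ± 0.13.

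Lymphoid cytokine receptors were reduced unevenly. Il7r, the receptor for interleukin-7, had 12927 and 11842 in vehicle C10, 1772 and 1659 after 3 h and 330.1 and 396 after 12 h, and fell by 5.10 ± 0.11 at 12 h (adjusted p = 1.3e-07). It was the deepest fall among 13 tested lymphoid cytokine receptor and STAT5 genes, of which 7 fell and 1 rose (median -0.63, which turned to 0.10 under spike-in scaling). Tnfrsf13c, the BAFF receptor, went from 1809 and 1828 to 294 and 318 and fell by 2.57 ± 0.14. Tnfrsf13b, the receptor TACI, kept 2759 and 2817 of 7417 and 7523 and did not pass under spike-in scaling (adjusted p = 0.34). Mcl1, a survival gene, was the member that rose, by 0.52 ± 0.08.

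Of 23 tested B lineage transcription factors, 20 fell, 2 rose and 1, Mef2c, did not pass (median -1.70, with 11 lower and 2 higher under spike-in scaling). The zinc finger factor Bcl11a had 5009 and 4968 in vehicle C10 and 407 and 436 at 12 h, and fell by 3.57 ± 0.16 (adjusted p = 2.3e-06). Foxo1, which drives Rag and Il7r transcription in precursors, went from 6905 and 6898 to 639 and 611, and Sox4 from 9683 and 8659 to 1181 and 1098. Ebf1 went from 8155 and 7222 to 1262 and 1386 and fell by 2.54 ± 0.13 (adjusted p = 4.0e-06). Each of these 4 remained above the filter level at 12 h in both arrays, and for Bcl11a, Foxo1 and Sox4 the step from 3 h to 12 h did not pass, at -0.13 ± 0.16, 0.13 ± 0.11 and -0.10 ± 0.11. Pax5, the commitment factor, had 426 and 556 in vehicle C10, 78.4 and 72.6 after 3 h and 168 and 237 after 12 h. It fell by 1.29 ± 0.29 from vehicle (adjusted p = 0.0069) and did not pass under spike-in scaling (adjusted p = 0.36). Ets1, a factor of lymphoid cells, was higher at 12 h, with 6554 and 6894 against 3419.7 and 3088 and a rise of 1.05 ± 0.09 (adjusted p = 6.5e-05), before 1057 and 1211 at 48 h.

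**Figure D2:**
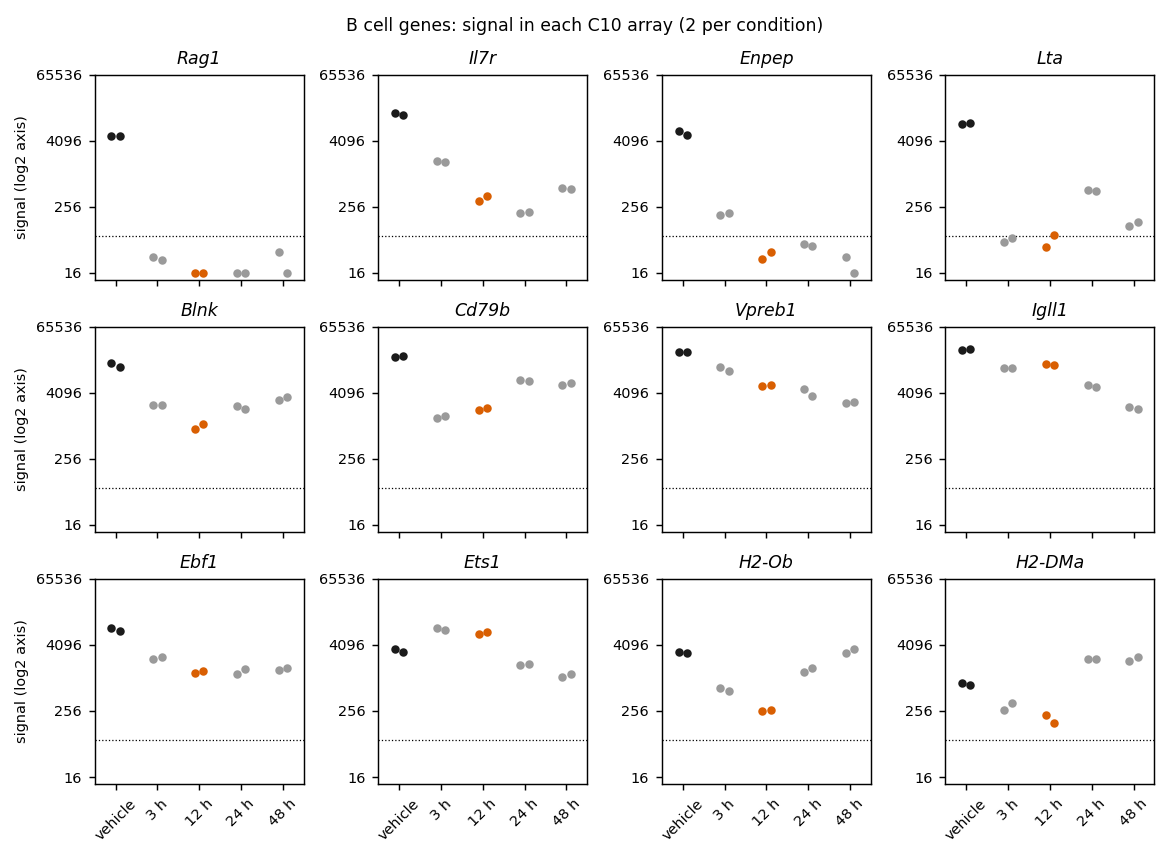
Signal of 12 B cell genes (log2 axis) in each C10 array, with 2 points per condition, vehicle in black, 12 h in orange and the other times in grey, and a dotted line at the filter level of 74.6. Rag1 and Enpep are below that line at 12 h, Vpreb1 and Igll1 are far above it there, and H2-DMa is lower at 12 h than in vehicle or at 48 h.

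Surface antigens of B cells fell in most cases. Of 20 tested, 14 fell and 3 rose (median -2.24, or -1.84 with bounds, with 11 lower and 3 higher under spike-in scaling). Enpep, the aminopeptidase known as BP-1 on precursor B cells, had 6050.3 and 5165 in vehicle C10, 177 and 196 after 3 h and 28.4 and 38.5 after 12 h, lower by at least 74.9-fold (adjusted p = 5.2e-06). Cr2, a complement receptor, went from 1171 and 1377 to 61.2 and 16, a bound of 17-fold, and Cd244a, a receptor of the SLAM family, from 1058 and 951 to the floor, a bound of 13.4-fold. Cd2, an adhesion receptor, went from 3388 and 3614 to 88.2 and 105 and fell by 5.18 ± 0.10. Both Cr2 and Cd244a were still at 491 and 491 and 250.3 and 276 at 3 h, and the step from 3 h to 12 h passed for each (adjusted p = 0.0019 and 1.2e-06), though for Cd244a not with a floor of 1 (adjusted p = 0.122). The members that rose were Spn, the sialomucin CD43, by 1.17 ± 0.10, Cd93, by 0.99 ± 0.08, and Ptprc, the phosphatase CD45, by 0.34. All 3 are also carried by myeloid cells.

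Genes of antigen presentation by MHC class II, which B cells and macrophages both use, were at their low point among the 5 C10 conditions for most of the members named here. Of 13 tested, 11 fell and none rose (median -1.53, with 6 lower under spike-in scaling). With HAFTL as the control 7 were lower and the median was -0.26. Cd74, the invariant chain, had 11051 and 12142 in vehicle C10, 3310.0 and 3374 after 3 h and 1136 and 1194 after 12 h. Its signal was back at 13709.7 and 13856 by 24 h and reached 28049 and 28322 by 48 h. H2-Ob, a chain of the peptide exchange inhibitor, went from 3088 and 2942 to 261 and 268 and back to 2866 and 3474 at 48 h. H2-DMa, a chain of the peptide exchanger, had 824 and 755 in vehicle C10, 218 and 152 at 12 h and later, at 48 h, 2083 and 2443. At 12 h the changes of these 3 were -3.31 ± 0.08, -3.51 ± 0.12 and -2.12 ± 0.21 (adjusted p = 1.6e-07, 6.8e-07 and 1.1e-04). From 12 h to 48 h, 8 of the 13 genes rose and 1 fell, beside 24.3% and 31.3% of all genes tested.

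Lymphotoxin and the receptors for lymphoid homing were also reduced. Of 8 tested genes 7 fell and none rose (median -2.00, or -1.33 with bounds, with 4 lower under spike-in scaling). Lta, lymphotoxin alpha, had 8117 and 8714 in vehicle C10 and 47.5 and 78.6 at 12 h, and by the fit fell by 7.10 ± 0.22, which is uncertain because 1 of the 2 arrays at 12 h lay under the filter level. Ccr6, a chemokine receptor, went from 463 and 434 to the floor in both arrays, a bound of 6.01-fold. Cxcr4, which holds precursors in bone marrow, went from 2801 and 2137 to 412 and 504 and fell by 2.42 ± 0.19 (adjusted p = 3.7e-05). S1pr1, the exit receptor, fell by 1.57 ± 0.28 with 1 array at 12 h under the filter level, and did not pass under spike-in scaling (adjusted p = 0.15).

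Granule proteins that passed the filter were mostly higher, but of 22 with a probe set of their own only 14 were tested. Of those 14 genes 10 rose and 1 fell, with a median of 2.04 (0.96 with bounds, and 10 higher with none lower under spike-in scaling). Hp, haptoglobin, had 28 and 16 in vehicle C10, 299 and 158 after 3 h and 6129 and 5786 after 12 h, a bound of 79.8-fold (adjusted p = 1.1e-05). S100a8, a calcium-binding protein of neutrophils and monocytes, had 16.8 and 46 in vehicle C10, 60.6 and 60.5 after 3 h and 1494 and 1765 after 12 h, a bound of 21.8-fold. Camp, the cathelicidin, had 969 and 879 at 12 h against the floor in vehicle C10, and Lcn2, the siderophore-binding lipocalin, 1155 and 1254 against 16 and 33. The 12 h arrays thus lay far above both vehicle arrays for all 4. Lcn2 had fallen back to 83.5 and 78.7 at 48 h (a change from 12 h of -3.89 ± 0.38, adjusted p = 7.0e-05). The 1 that fell was Mmp9, by 1.13 ± 0.39, which did not pass under spike-in scaling (adjusted p = 0.48). Not all granule genes of the neutrophil were called: 3 of the 14 tested were not, and others did not pass the filter. Of the primary granule genes Mpo, myeloperoxidase, had 21.4 and 27.2 at 12 h and 51.3 and 16 in vehicle C10 and did not pass. Elane, neutrophil elastase, did not pass the filter. Neither did Ltf, S100a9 and Cd177, and Ngp, with 76.4 and 62 at 12 h, was tested but not called (adjusted p = 0.57).

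Among genes that sense microbes Cd14 and Tlr2 rose. Of 20 tested genes 9 rose, 4 fell and 7 did not pass (median 0.22, or 0.03 with bounds), beside 22.3% higher and 28.7% lower of all genes. Under spike-in scaling 8 were higher and 1 lower (median 0.84). Without 12 h replicate 2 the median was 0.61. Cd14, the lipopolysaccharide co-receptor, had 66.2 and 39.7 in vehicle C10 and 2542 and 2524 at 12 h, a bound of 33.9-fold (adjusted p = 1.2e-04), on the way to 33513 and 32188 at 48 h. Tlr2, a receptor for bacterial lipopeptides, went from 309.6 and 288 to 3997 and 4004 and rose by 3.74 ± 0.18 (adjusted p = 3.3e-06). Irak3, which damps Toll-like receptor signalling, rose by 2.65 ± 0.11 to 2561 and 2520.3, and Irak2, which transmits it, by 1.39 ± 0.12. Tlr1, the partner of Tlr2, instead went from 288 and 235 to 40.8 and 32.3, below the filter level (a bound of 3.49-fold, adjusted p = 1.7e-05). Tlr4, the lipopolysaccharide receptor that Cd14 serves, went from 1253 and 1108 to 555 and 475 and fell by 1.20 ± 0.12, a call that ended under spike-in scaling (adjusted p = 0.39). Both were higher again at 48 h, with 562 and 659 and 3817 and 3494.

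Receptors for engulfment were called at a share no higher than that of all genes. Of 20 tested Fc, scavenger and phagocytic receptor genes 4 rose, 4 fell and 12 did not pass, beside 22.3% and 28.7% of all genes, with a median of 0.04, whose sign turned to -0.02 with no filter on dim genes. Spike-in scaling gave 4 higher and 1 lower (median 0.78), and HAFTL as the control gave 8 higher (median 0.51). Scarb1, a lipoprotein receptor, rose by 2.63 ± 0.07 from 1276 and 1216 to 7568 and 7834 (adjusted p = 1.9e-07), and Sirpa, an inhibitory receptor of macrophages, by 1.75 ± 0.10 to 1255 and 1301. Fcgr3, a low-affinity Fc receptor, had 59.7 and 35.7 in vehicle C10 and 195 and 220.0 at 12 h, a bound of 2.77-fold, far under its 14024 and 13735 at 48 h. Cd68, a macrophage marker of endosomes, went from 446 and 472 down to 145 and 127 and up to 2804 and 3324 at 48 h. It fell by 1.76 ± 0.12 at 12 h (adjusted p = 1.9e-05) but did not pass under spike-in scaling (adjusted p = 0.078). Mrc1, the mannose receptor, went from 259 and 257 to 44.7 and 29.6, a bound of 3.46-fold lower, and Itgam, the CD11b integrin, had 16 and 20.8 in vehicle C10 and 16 and 16 at 12 h.

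The subunits of the phagocyte oxidase moved in both directions, with 3 of 7 tested genes higher and 3 lower, beside 22.3% and 28.7% of all genes. Their median was -0.10, which was 0.07 for the deposited values, 0.11 after median centring and 0.81 under spike-in scaling (3 higher and 1 lower). Cybb, the membrane catalytic subunit, was bright already in vehicle C10, at 2309 and 2557, and reached 16790.5 and 17668 at 12 h, a rise of 2.83 ± 0.09 (adjusted p = 5.3e-07). Ncf1, the cytosolic organiser p47, had 598 and 593 in vehicle C10, 598 and 636 after 3 h and 3054 and 3064 after 12 h, so that its rise of 2.36 ± 0.09 came after 3 h (12 h over 3 h 2.31 ± 0.09, adjusted p = 7.9e-06). Ncf4, the subunit p40, fell by 1.52 ± 0.10 from 3052 and 2892 to 959.5 and 1119.8, and Hvcn1, the proton channel that serves the oxidase, changed by -2.03 ± 0.23, but not with HAFTL as the control (-0.14, adjusted p = 0.652). Rac2, the GTPase that activates it, changed by -0.79 on the log2 scale under quantile normalisation and by 0.08 under spike-in scaling, where neither Rac2 (adjusted p = 0.91) nor Ncf4 (adjusted p = 0.19) passed.

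Lysosomal genes rose more often than they fell, 13 against 7 of 29 tested, beside 22.3% and 28.7% of all genes (median 0.36, with 13 higher and 1 lower under spike-in scaling). Lyz2, the macrophage lysozyme, had 171 and 229.9 in vehicle C10, 555 and 561 after 3 h and 4593 and 4356 after 12 h, a rise of 4.50 ± 0.14 (adjusted p = 4.4e-07). Its near-identical neighbour Lyz1 had 309 and 277 and 11198 and 10833, and the probes of the pair may share transcripts. Ctsd, the aspartic protease cathepsin D, went from 1255 and 1319.5 to 5867 and 6208 and rose by 2.23 ± 0.08. Atp6v1a, a subunit of the proton pump that acidifies lysosomes, rose by 1.89 ± 0.12 to 4267 and 4156. The proteases that process antigens for MHC class II went the other way, with Lgmn, legumain, from 3663 and 4169 to 413 and 396 (-3.27 ± 0.15, adjusted p = 2.7e-06) and Ctss, cathepsin S, from 9490.1 and 9601 to 3616 and 3663 (-1.39 ± 0.06). Ctss did not pass under spike-in scaling (adjusted p = 0.41).

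**Figure D3:**
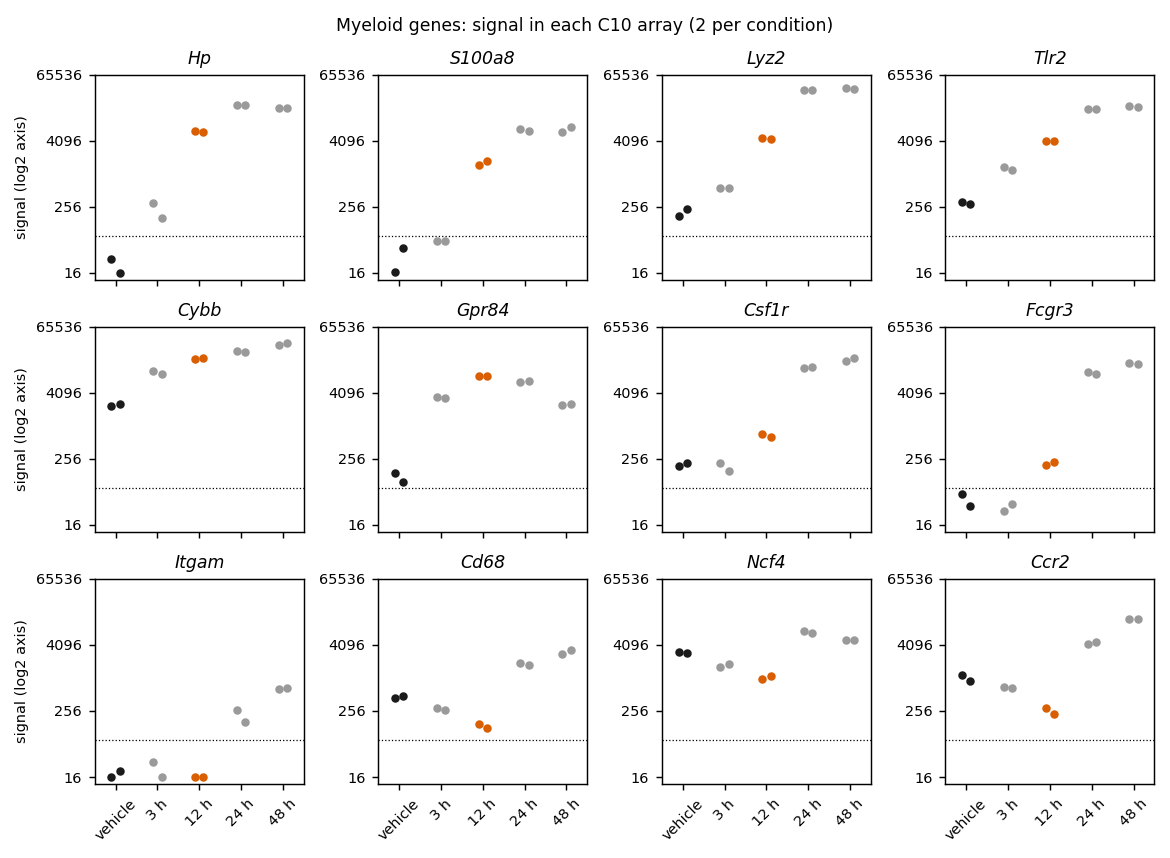
Signal of 12 myeloid genes (log2 axis) in each C10 array, with 2 points per condition, vehicle in black, 12 h in orange and the other times in grey, and a dotted line at the filter level of 74.6. Hp, S100a8, Lyz2, Tlr2, Cybb and Gpr84 stand above vehicle at 12 h, Csf1r and Fcgr3 are well short of their 48 h signals, Itgam is at the floor, and Cd68, Ncf4 and Ccr2 are lower at 12 h than in vehicle or at 48 h.

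Interleukin-1 genes were present in part. Il1b, interleukin-1 beta, had 63.8 and 51.9 in vehicle C10, 386 and 427 after 3 h and 2412 and 2684 after 12 h, a bound of 34.1-fold (adjusted p = 3.2e-07), and Il1rn, the receptor antagonist, 597 and 569 against 46 and 16, a bound of 7.81-fold. Both stood well above the vehicle arrays. Il18, another cytokine matured by the inflammasome, instead went from 765 and 720.5 to 253 and 332 and fell by 1.36 ± 0.15, which did not pass under spike-in scaling (adjusted p = 0.27). In the list as a whole 6 of 14 tested genes rose and 3 fell (median 0.24), against 5 higher and 1 lower under spike-in scaling (median 0.90). The 6 higher became 3 without 12 h replicate 1, without 12 h replicate 2 or with no filter.

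Of 12 tested chemokines, 3 rose, none fell and 9 did not pass (median 0.46, which turned to -0.02 without vehicle replicate 1), and 5 were higher under spike-in scaling. The share that rose was close to the 22.3% of all genes, of which 28.7% fell. Ccl9 had 305 and 285 in vehicle C10 and 12895 and 12444 at 12 h, a rise of 5.43 ± 0.12 (adjusted p = 1.5e-07). Ccl3 went from 395 and 458 to 3239 and 3609 and Ccl6 from 161 and 135 to 691 and 808, rises of 3.01 ± 0.14 and 2.34 ± 0.12. All 3 attract leukocytes through receptors that include Ccr1, which itself rose by 1.60 ± 0.12 to 378 and 437. Ccr2, the receptor of inflammatory monocytes, fell by 2.01 ± 0.15 from 1182 and 901 to 287 and 229.9 (adjusted p = 2.4e-05) and had 12038 and 12010.0 at 48 h. Gpr84, a receptor for medium-chain fatty acids, had 142 and 97.1 in vehicle C10, 3367 and 3231 at 3 h, 8291 and 8412 at 12 h and later, at 48 h, 2424 and 2594, its highest signals being those at 12 h. It rose by 6.15 ± 0.16 at 12 h (adjusted p = 2.3e-07) and fell by 1.74 ± 0.16 from 12 h to 48 h (adjusted p = 5.2e-05). Among 9 tested chemoattractant receptors 4 rose and 1 fell, with a median of 0.92 that became 0 with dim genes at their bound, and with a floor of 64 only 2 were higher.

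Enzymes of lipid mediators and of the matrix were present in part. Ptgs2, cyclooxygenase 2, had 16 and 30.9 in vehicle C10, 397 and 358 after 3 h and 1389 and 1426 after 12 h, a bound of 18.9-fold, while Alox5ap, which serves leukotriene synthesis, fell by 1.48 ± 0.10 from 1864 and 1858 to 661 and 671, a call lost under spike-in scaling (adjusted p = 0.19). Over the list 5 of 10 tested genes rose and 1 fell (median 0.82), with 6 higher and none lower under spike-in scaling. Mmp8, the neutrophil collagenase, was at the floor in vehicle C10 and had 1577 and 1464 at 12 h, a bound of 20.4-fold. Mmp13, another collagenase, had 906 and 909 at 12 h against 26.6 and 29.6, a bound of 12.2-fold, and Mmp12, the macrophage elastase, 146 and 103 against the floor, a bound of 1.64-fold on the way to 34319 and 35091 at 48 h. Plaur, the urokinase receptor, rose by 3.13 ± 0.11 from 510.2 and 565 to 4454 and 4965, and Serpinb2, an inhibitor of plasminogen activators, was higher by at least 24.8-fold. In that list 6 of 13 tested genes rose and 2 fell (median 0.82), with 8 higher and none lower under spike-in scaling. The 2 that fell were Mmp11 and Mmp9, with adjusted p of 0.25 and 0.48 under that scaling.

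Promoter sequences are shown for the 3 myeloid and 2 B cell function genes with the largest called changes among those that RefSeq's promoter set for GRCm38.p6 holds, as the 250 bases before the transcription start on the gene's strand, to set the genes beside the site that C/EBP factors bind. Both strands were searched for TTGCNNAA, and matches are in capitals. The regions are chr9:7558179-7558428 on the plus strand for Mmp8, chr1:107511173-107511422 on the plus strand for Serpinb2 (the first listed of 2 windows), chr15:103310439-103310688 on the minus strand for Gpr84, chr2:101649533-101649782 on the minus strand for Rag1 and chr3:129332750-129332999 on the minus strand for Enpep.
Mmp8: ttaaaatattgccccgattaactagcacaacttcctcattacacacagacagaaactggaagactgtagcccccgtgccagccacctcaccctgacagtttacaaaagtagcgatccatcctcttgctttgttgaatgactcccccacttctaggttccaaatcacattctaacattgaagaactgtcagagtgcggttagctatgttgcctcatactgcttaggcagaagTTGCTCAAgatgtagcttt
Serpinb2: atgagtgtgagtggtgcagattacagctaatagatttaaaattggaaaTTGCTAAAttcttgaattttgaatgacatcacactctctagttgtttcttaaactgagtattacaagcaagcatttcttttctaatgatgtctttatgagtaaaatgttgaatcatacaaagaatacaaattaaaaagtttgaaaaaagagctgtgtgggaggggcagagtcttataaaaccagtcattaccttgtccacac
Gpr84: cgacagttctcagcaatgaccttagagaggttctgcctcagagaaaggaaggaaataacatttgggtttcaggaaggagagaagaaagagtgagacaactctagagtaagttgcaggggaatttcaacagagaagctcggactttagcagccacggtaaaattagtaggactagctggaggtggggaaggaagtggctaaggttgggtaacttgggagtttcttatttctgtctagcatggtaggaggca
Rag1: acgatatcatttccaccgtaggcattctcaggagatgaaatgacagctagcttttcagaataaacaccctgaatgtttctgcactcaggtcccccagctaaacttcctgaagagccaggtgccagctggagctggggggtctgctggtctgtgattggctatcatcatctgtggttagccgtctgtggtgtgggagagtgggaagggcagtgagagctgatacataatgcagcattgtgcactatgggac
Enpep: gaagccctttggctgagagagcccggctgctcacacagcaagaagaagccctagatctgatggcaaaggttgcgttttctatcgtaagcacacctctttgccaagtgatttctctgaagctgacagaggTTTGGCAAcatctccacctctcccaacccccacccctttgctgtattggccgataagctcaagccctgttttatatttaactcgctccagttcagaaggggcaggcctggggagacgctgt
The match in Mmp8 begins 19 bases before the start, that in Serpinb2 202 bases and that in Enpep 121 bases before it, and the windows of Gpr84 and Rag1 hold none. Over all genes 32851 such windows were searched, and 9.6% of them hold at least 1 match, against 8.3% of the 2712 windows of genes higher at 12 h, 7.7% of the 3566 windows of genes lower at 12 h and 7.0% of the 5837 windows of tested genes that did not pass. A match describes letters and is no evidence of binding, and the absence of one says only that these letters are not in the window.

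Receptors for myeloid growth factors were at an early point of their course. Of 16 tested 8 rose and 2 fell (median 0.65, with 9 higher and 1 lower under spike-in scaling). Csf1r, the macrophage colony-stimulating factor receptor, had 190.0 and 215 in vehicle C10, 212 and 151 at 3 h, 715 and 646 at 12 h and later, at 48 h, 15599 and 17627. Its rise of 1.75 ± 0.16 at 12 h (adjusted p = 7.6e-05) stood beside 4.61 ± 0.16 from 12 h to 48 h. Csf2rb, the shared chain of the GM-CSF receptor, was bright in vehicle C10, at 4756 and 4563, and rose by 1.29 ± 0.08 to 11856 and 10937. Il6ra, the interleukin-6 receptor, rose by 1.71 ± 0.15 to 1169.7 and 1160.3. Lifr, the leukaemia inhibitory factor receptor, fell by 3.79 ± 0.24 from 2061 and 2009.9 to 189 and 114 (adjusted p = 1.2e-05) and had 1765 and 2043 at 48 h. Csf3r, the G-CSF receptor, did not pass the filter.

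Of 27 tested myeloid transcription factors 16 rose and 3 fell (median 0.95, or 0.74 with bounds, and 16 higher with none lower under spike-in scaling). Nfil3, a leucine zipper repressor, had 666 and 700.4 after 3 h and 1149 and 1123 after 12 h against the floor in vehicle C10, a bound of 15.2-fold (adjusted p = 5.3e-05). The AP-1 subunit Fosl2 had 71 and 52 after 3 h and 894 and 769 after 12 h against the floor, a bound of 11.1-fold, and Fos, another, rose by 4.08 ± 0.09 from 135 and 157 to 2462 and 2451. Cebpd, a C/EBP relative of later granulocyte stages, had 83.4 and 108 in vehicle C10, 116 and 88.9 after 3 h and 841 and 829 after 12 h, a rise of 3.14 ± 0.17 (adjusted p = 6.2e-06) that came after 3 h. A further pair of regulators, outside the naming rule, was looked at after their values were seen. Spi1, which encodes PU.1, had 1570.2 and 1369.7 in vehicle C10 and 5622 and 5619 at 12 h, a rise of 1.94 ± 0.09 (adjusted p = 2.8e-06). Cebpb had 1523 and 1947 and 2258 and 2277 and did not pass (0.40 ± 0.16, adjusted p = 0.078). Jund fell by 1.11 ± 0.17 and Cebpg fell by 0.71 ± 0.07, and neither passed under spike-in scaling, where the change of Cebpg was 0.03 (adjusted p = 0.66 and 0.97), nor when the probe sets of a gene were averaged (0.0825 and 0.168).

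Adhesion and cytoskeletal genes of migrating phagocytes, and genes of lipid storage, held several signals that were higher at 12 h than in any other C10 condition. Anxa3, a membrane-binding annexin, had 44 and 33 in vehicle C10, 4050.4 and 3686 at 12 h and later, at 48 h, 1786 and 1826, a bound of 51.8-fold at 12 h. Anxa1 went from 1442 and 1582 to 24998 and 24066 at 12 h, with 14997 and 15089.8 at 24 h. Vcl, vinculin of adhesion sites, had 1617 and 1641 in vehicle C10, 8155 and 7969 at 12 h and later, at 48 h, 2714 and 2835. Dgat2, which makes triglyceride, had 96.3 and 96.3 in vehicle C10, 2967 and 2914 at 3 h, 5088 and 5049 at 12 h and later, at 48 h, 630.4 and 509.5. Its step from 3 h to 12 h did not pass (0.79 ± 0.33, adjusted p = 0.11), while that of Anxa3 did (3.14 ± 0.22, adjusted p = 6.5e-05). From 12 h to 48 h the changes were -1.10 ± 0.22 for Anxa3, -0.64 ± 0.10 for Anxa1, -1.54 ± 0.08 for Vcl and -3.16 ± 0.33 for Dgat2 (adjusted p = 0.0032, 7.6e-04, 1.8e-06 and 9.6e-05). Plin2, which coats lipid droplets, instead rose from 1131 and 1157 to 5151 and 4924 and on to 16315 and 16004. Selplg, the selectin ligand PSGL-1, fell by 2.33 ± 0.07 from 4424 and 4446 to 874 and 893, and S100a10 fell by 1.24 ± 0.11, the latter not under spike-in scaling (adjusted p = 0.46). Counts were 9 higher and 4 lower of 22 for adhesion (median 0.55) and 7 and 3 of 14 for lipid storage (median 0.41), against 12 and 1 for adhesion and 6 and 0 for lipid storage under spike-in scaling.

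At 12 h the cells still carried raised proliferation genes. Of 22 tested DNA replication genes 19 rose and none fell (median 1.44), and of 19 mitosis genes 15 rose and none fell (median 0.98), with 18 higher in each list under spike-in scaling. Mcm5, a subunit of the replicative helicase, had 3695 and 3859 in vehicle C10, 13943 and 15047 at 3 h, 14624 and 14569 at 12 h and later, at 48 h, 199 and 183. Cdk1, the mitotic kinase, had 1972 and 2001, 10596 and 9683, 6257 and 6371 and 171 and 120.3 in the same order. The 12 h rises were 1.95 ± 0.08 and 1.67 ± 0.15 (adjusted p = 1.4e-06 and 8.0e-05). Between 3 h and 12 h, 10 of the 22 replication genes and 8 of the 19 mitosis genes fell and none rose (medians -0.40 and -0.59). Of all genes 16.6% fell and 16.6% rose in that step. From 12 h to 48 h, 21 of the 22 replication genes and all 19 mitosis genes fell, beside 31.3% of all genes. The cell cycle inhibitor Cdkn1a, p21, had 1760.5 and 2075 in vehicle C10, 547 and 641 after 3 h and 4017 and 3551 after 12 h, a rise of 0.98 ± 0.12 from vehicle and of 2.67 ± 0.12 from 3 h (adjusted p = 2.9e-04 and 1.0e-05), but its vehicle comparison did not pass with the mean of its probe sets. Of 11 tested cell cycle inhibitors 5 rose and 5 fell (median 0.04), against 4 higher and none lower under spike-in scaling (median 0.75). Myc, the growth regulator, fell by 2.19 ± 0.07 from 7676 and 7956 to 1762 and 1665. In its list of Myc network and ribosome biogenesis genes 14 of 20 fell and 2 rose, and the median of -0.63 changed sign with spike-in scaling (0.091), where 1 was lower and 2 higher.

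Cholesterol synthesis rose throughout its list, with all 16 tested genes higher (median 1.41, and 15 higher under spike-in scaling). Hmgcs1, which makes the precursor HMG-CoA, had 3295 and 3326 in vehicle C10, 10648 and 10530.1 after 3 h and 11239.8 and 11684 after 12 h, a rise of 1.79 ± 0.08 (adjusted p = 1.7e-06), and Idi1, an isoprenoid isomerase, rose by 1.97 ± 0.09. All 16 were lower at 48 h than at 12 h. Probe sets of Fdft1, another of the 16, were called in both directions.

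Most interferon-response genes were not called higher at 12 h, which also held for all genes, of which 22.3% were higher and 28.7% lower. Of 19 tested 5 rose and 7 fell, and the median was -0.51, against 0.18 with spike-in scaling, where 6 were higher and 1 lower, and 0 with bounds. Without vehicle replicate 2 only 4 were lower, with a median of 0. Rsad2, the antiviral protein viperin, had 70.5 and 77.2 in vehicle C10, 34.2 and 65.4 at 12 h and later, at 48 h, 20513 and 19017, and Mx1, an antiviral GTPase, 16 and 33.7, 28.6 and 19.8 and 11663 and 13092. For Mx1 the vehicle and 12 h arrays overlapped, and neither gene passed at 12 h (-0.64 ± 0.32, adjusted p = 0.13, and 0.04 ± 0.60, adjusted p = 0.97), although Rsad2 did without 12 h replicate 2 (-1.11, adjusted p = 0.0161). Irf7, an amplifier of the response, had the floor in vehicle C10, 89.2 and 102 at 12 h and later, at 48 h, 15434 and 18193, a bound of 1.28-fold at 12 h (adjusted p = 8.7e-04), which did not pass against HAFTL (adjusted p = 0.0851). Bst2, a tetherin of virus particles, fell by 1.12 ± 0.09 from 1174 and 1150.5 to 539.9 and 527 and did not pass under spike-in scaling (adjusted p = 0.47). All 19 genes were higher at 48 h than at 12 h, beside 24.3% of all genes tested.

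**Figure D4:**
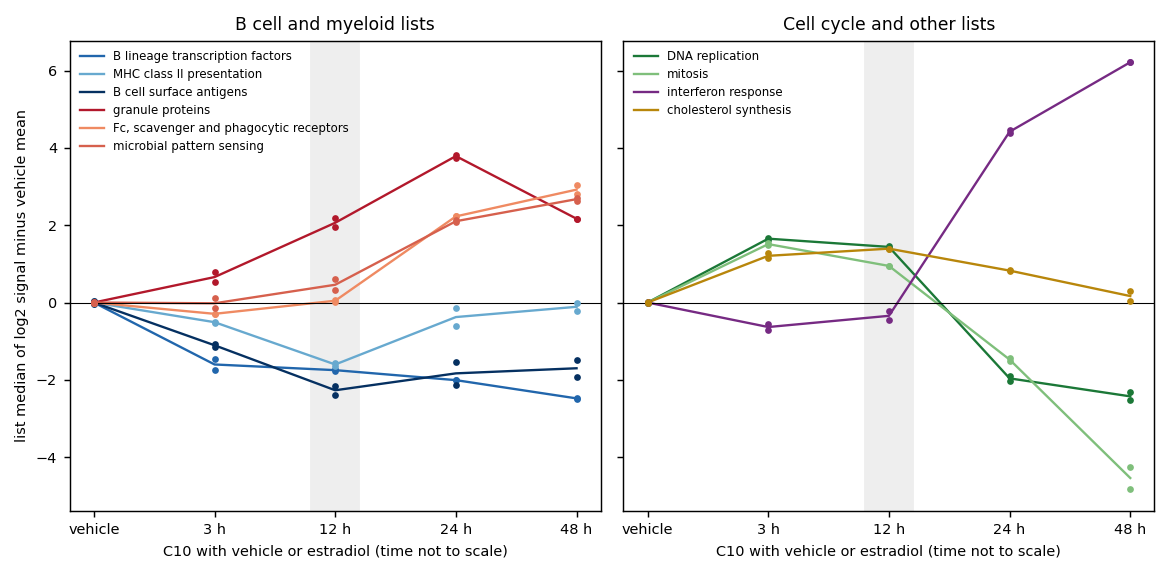
Median over the tested genes of a list of the log2 signal in each array minus the mean of vehicle C10 (y axis), with points for the 2 arrays of a condition and lines through their means, against the C10 condition (x axis, not to scale, 12 h shaded). At 12 h the MHC class II and B cell surface antigen medians are lower than at any other time shown, replication and mitosis are still raised, and the interferon median has not yet risen.

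Of 16 tested immediate early and stress genes 12 rose and 1 fell (median 1.19), with the same counts under spike-in scaling. Further large changes lay outside the function lists. Ddc, aromatic amino acid decarboxylase, had 6983 and 7134 in vehicle C10, 305 and 346 after 3 h and 16 and 16 after 12 h, a bound of 94.6-fold, and Haao, an enzyme of tryptophan breakdown, went from 1247 and 1330.5 to the floor, a bound of 17.3-fold. Grb10, an adaptor that restrains growth factor receptors, fell by 5.59 ± 0.09 from 14524 and 13687 to 285 and 299 (adjusted p = 4.3e-08). Cdh17, a cadherin, and Emid1 were lower by at least 24.2-fold and 23-fold, and both were higher at 48 h than at 12 h (adjusted p = 1.7e-04 and 6.9e-04). Hsd11b1, which activates glucocorticoids, rose by 5.57 ± 0.27 from 153 and 124 to 6487 and 6595, and Abtb2 was higher by at least 12.8-fold. Genes that oestrogen induces in other tissues were mixed, with 3 of 9 tested higher and 1 lower (median 0.06), beside 22.3% and 28.7% of all genes. Those higher were Ctsd, given above, Xbp1, which rose by 1.48 ± 0.10, and Myb, which rose by 0.30 ± 0.08 (adjusted p = 0.013). Ccnd1, cyclin D1, fell by 1.60 ± 0.07 but did not pass under spike-in scaling (adjusted p = 0.17), where 3 genes of the list were higher and none lower. The call for Myb was lost on leaving out vehicle replicate 2 (adjusted p = 0.0743), 12 h replicate 1 (0.0575) or 12 h replicate 2 (0.0539).

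In the longer lists for other cell types few genes passed the filter. For 17 T and NK cell genes the summed signal was 3132 to 3233 in vehicle C10 and 1184 to 1298 at 12 h, and of 6 tested 3 fell and none rose, among them Cd5, which some B cells carry, at -2.94 ± 0.14, though not against HAFTL (-0.01, adjusted p = 0.943). For 12 dendritic cell genes it was 11149 to 11509 and 3596 to 3825, and of 7 tested 4 fell and none rose, among them Dpp4 at -3.11 ± 0.12 and Tcf4 at -0.92 ± 0.10. For 14 stromal and endothelial genes it was 12996 to 13636 and 33920 to 34447, most of it from Vim, vimentin, which leukocytes also make, with 12193 and 12475 in vehicle C10 and 31405 and 31974 at 12 h, and of 6 tested 3 rose and 1 fell. For 9 erythroid and megakaryocyte genes it was 8730 to 9568 and 2946 to 3114, and of 5 tested 1 fell and none rose. Under spike-in scaling Tcf4 did not pass (adjusted p = 0.8), and lower genes numbered 2 in the T and NK cell list, 2 in the dendritic cell list and none in the stromal and erythroid lists. For 15 mast cell, basophil and eosinophil genes it was 468 to 481 and 595 to 693, and of 4 tested 2 rose, Hdc and Il5ra. The call for Il5ra (0.74) was lost with an intensity trend in the prior (adjusted p = 0.31), a floor of 1 (0.317) or of 64 (1) and a pseudocount of 16 (0.106). Hdc, histidine decarboxylase, was higher by at least 2.12-fold, with 129.9 and 193 against 32.3 and 16, a call lost without vehicle replicate 2 (adjusted p = 0.056). Among 12 housekeeping genes 3 were higher and 3 lower, and the median was -0.02, against 0.63 with spike-in scaling, where 2 were higher and none lower, and without 12 h replicate 2 only 1 was higher. The part of these lists in the results was not tested.

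Relative to 3 h, the 12 h arrays had 1944 genes higher and 1937 lower (16.6% each of those tested), and 48 h against 12 h had 2839 higher (24.3%) and 3661 lower (31.3%), 55.6% in all. These comparisons share the 12 h arrays with the one against vehicle, so their values are given side by side and not as independent evidence. B cell function genes numbered 24 higher and 45 lower at 12 h than at 3 h and 43 higher and 30 lower at 48 h than at 12 h. Myeloid function genes numbered 113 higher and 19 lower in the first step and 153 higher and 25 lower in the second, with medians of 0.58 and 1.48. Igsf6, an immunoglobulin superfamily member of myeloid cells, was at the floor in vehicle C10 and at 3 h, had 268 and 240.4 at 12 h and later, at 48 h, 3993 and 3767, and was higher at 12 h than at 3 h by at least 3.4-fold. Apoc1, an apolipoprotein, had 26.6 and 72.2 after 3 h and 813 and 719 after 12 h, a bound of 10.2-fold for that step. C3ar1, the receptor for complement C3a, had 29.9 and 22.5 at 12 h and later, at 48 h, 12475 and 13607, higher by at least 175-fold at 48 h.

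When estradiol-treated HAFTL served as the control, the 12 h arrays had 2649 higher and 3340 lower genes, with 80 B cell function genes lower and 105 myeloid function genes higher. Some genes stood at different levels in HAFTL and vehicle C10. Enpep had 269 and 133 in HAFTL against 6050.3 and 5165 in vehicle C10, Lyz2 831 and 949 against 171 and 229.9, Ccl9 62.4 and 48.1 against 305 and 285 and Dntt 5292 and 5208 against 88.8 and 102. Crisp3, which went from 2216 and 2435 in vehicle C10 to 56.9 and 63.6 at 12 h, had 41.3 and 65.9 in HAFTL, a difference from 12 h of 0.21 that did not pass.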

How the data were processed

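The data were 12 one-colour Affymetrix mouse arrays, 2 per group, with RNA extracted with Trizol and biotin-labelled, per the labels' protocols. The deposited values are intensity, 1 signal per probe set on a linear scale. How the authors summarised and scaled them is not given in the sources used here, but the 12 arrays share 1 trimmed mean (2% off either end), so scaling came before deposit. All 45101 probe sets were quantile-normalised and set to a floor of 16 before log2 was taken, and 64 control probe sets were then dropped. Gene names came from the platform annotation: 34945 probe sets had 1 gene, 932 several and 9160 none, and 34741 of the first were found in RefSeq (GRCm38.p6) by Entrez ID. Each gene took the values of its brightest probe set by mean, and 11696 of 18193 named genes reached a signal of 74.6 in at least 2 arrays and were tested.

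Changes are differences of log2 signal, and errors beside them are standard errors from limma 3.58.1 in R 4.3.3. The fit had 1 mean per group over all 12 arrays (6 residual degrees of freedom, prior 1.53), and p-values were two-sided and Benjamini-Hochberg adjusted over all tested genes, with calls at 0.05. Where both arrays of a group were under the filter level, the change is given as a lower bound, the bright group's mean over the higher of that level and the dim group's own. Levels are not compared between probe sets. The filter is not a detection call. With 2 arrays per group the number of arrays limits the precision. On simulated data of the same size, with 200 of 11696 genes changed, 60% of genes changed by 1 on the log2 scale and 85% of those changed by 2 were recovered, and 11 of 156 calls were unchanged genes. In the data 51% of genes were called at 12 h against vehicle, so these rates need not carry over.

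Members and gene lists were chosen with earlier results of these data known. Named genes were the 15 largest rises and falls at 12 h, up to 5 genes of each list with the largest change and 2 against the list's majority, the 5 largest rises and falls of each other comparison, the cell type markers and the called genes of the other lists. Replicate numbers did not pair the samples: deviations of same-numbered arrays correlated between -0.034 and 0.042 over 15 pairs of groups. Alternatives changed the normalisation, filter, probe set rule, samples fitted, control group and arrays used.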

Additional observations from a re-analysis of the deposited data

Results flagged for a closer look

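Named genes whose change from vehicle C10 was called in opposite directions at 12 h and at 48 h are listed here with the log2 signal at 48 h minus that at 12 h, the difference that was itself tested. A gene entered only if this difference was also called, so that all of them passed was fixed by the selection. The least certain of these differences had an adjusted p of 1.1e-04 (Mmp9, limma). There were 42 such genes, 16 higher at 12 h and lower at 48 h, and 26 the other way round. Under spike-in scaling all 16 rises at 12 h kept their call, but of the 26 falls at 12 h only 6 did: 16 lost it and 4 turned in sign (Fcgr1, B2m, Btg1 and Gusb). The opposite calls of those 20 genes thus depend on the scaling, although 16 of them kept the sign of their 12 h change. The 6 were Cd74, H2-DMa, Tlr1, Ccr2, Selplg and Oasl2, while for example Oasl1 (adjusted p = 0.125), Ifih1 (0.0573), Ccnd1 (0.174), Cd36 (0.685) and Cdkn2b (0.695) did not pass.

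Most of the first kind belong to mitosis and DNA replication. The differences were -7.92 for Ube2c, -7.50 for Nek2, -7.02 for Cep55, -6.92 for Shcbp1, -6.74 for Bub1, -5.84 for Ccnb2, -5.74 for Cdc20, -5.46 for Cdk1 and -4.59 for Mad2l1, all mitotic genes. They were -6.26 for Mcm5, -6.21 for Cdc6, -4.25 for Gins1 and -4.07 for Mcm4, which start DNA replication, and -3.31 for Myb, -2.57 for Ets1 and -2.19 for Cdkn2c. Of these, the 12 h call for Cep55 was lost on leaving out any 1 of its 4 arrays, with changes of 0.80 to 0.85 and adjusted p of 0.0945 to 0.112.

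Of the second kind, interferon-response genes gave 8.64 for Oasl2, 6.82 for Ifih1, 6.11 for Oasl1 and 4.43 for Bst2. Macrophage receptors gave 6.02 for Fcgr1, 5.55 for Ccr2, 4.49 for Cd68, 4.07 for Tlr1, 3.11 for Cd36 and 2.83 for Tlr4. The selectin ligand Selplg gave 2.54. Antigen presentation genes gave 4.60 for Cd74, 3.63 for H2-DMa, 2.39 for Ctss and 1.09 for B2m. The differences were 4.34 for Alox5ap, 3.65 for Mmp9, 3.63 for Il18, 2.67 for S100a10 and 2.28 for Ncf4, and 2.87 for Ccnd1, 2.66 for Cdkn2b, 2.51 for Il4ra, 1.74 for Btg1, 1.70 for Jund and 1.04 for Gusb. The 12 h falls of Oasl2 and Mmp9 were lost on leaving out any 1 of the 4 arrays, at -2.55 to -2.16 and -1.38 to -0.89. That of Ifih1 was lost without vehicle replicate 1 or 2 (-1.80 and -1.74), and that of Fcgr1 without vehicle replicate 2 (-0.35) or 12 h replicate 1 (-0.31).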

How the results depend on the processing

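Under spike-in scaling the error shared by all comparisons includes the 48 h arrays, whose spike-in signals were 291 and 141. Mean spike-in signals at 3 h and 12 h were 186 and 183. How many calls were lost to that spread was not tested. Spike-in scaling changed most. It left 441 genes lower at 12 h than in vehicle C10, 333 higher and 155 lower than at 3 h, and 1069 higher and 1471 lower at 48 h than at 12 h, with 43 B cell and 8 myeloid function genes lower at 12 h. It turned the medians of the oxidase (0.81), lymphoid cytokine receptors (0.10), Myc and ribosome biogenesis (0.091), interferon response (0.18) and housekeeping (0.63), and the changes of Rac2 (0.081), Cebpg (0.027), Btg1 (0.045), Fcgr1 (0.25), B2m (0.35) and Gusb (0.15). The oxidase median was 0.068 in the deposited values and 0.11 after median centring. Fitting the compared groups alone gave 1252 higher and 1193 lower at 12 h than at 3 h, with fewer arrays. Testing every probe set gave 4831 higher and 5187 lower against vehicle, over more features. Averaging the probe sets of a gene turned Fc and scavenger receptors (-0.042), housekeeping (0.051), Il10ra (0.20) and Actb (-0.19). Fc and scavenger receptors were -0.024 with no filter, and the erythroid median was -1.80 with a stricter filter. With HAFTL as control the values were 0.11 for the oxidase, -0.69 for erythroid, 0.061 for T and NK cells, 0.21 for Crisp3, -1.18 for Casp4, 0.11 for Btg1, 0.69 for Fcgr1, 0.13 for Klrd1 and -0.018 for Ywhaz. The cause of these turns was not tested.

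Leaving out 1 array at a time, with the lone array assumed to vary like the other groups, gave 1285 to 1320 genes lower and 1428 to 1653 higher at 12 h than at 3 h. Medians ranged from -0.024 (without vehicle replicate 1) to 0.589 for chemokines, from -0.038 (without vehicle replicate 1) to 0.125 for cell cycle inhibitors and from -0.049 (without vehicle replicate 2) to 0.071 for Fc and scavenger receptors. With the replicate number as a block, 2561 genes were higher and 3291 lower than in vehicle C10, 1881 and 1816 than at 3 h, and 2819 and 3617 at 48 h than at 12 h, with 87 B cell genes lower and 103 myeloid genes higher and 33 lower. Over all alternatives, changes of named genes kept direction and side of the threshold in 4215 cases, lost the call in 131, gained it in 10 and turned in 14.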
